A study of Mus musculus with 6 samples.

Results

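The 65 histone cluster genes described here are all genes with a symbol starting in Hist1h, Hist2h, Hist3h or Hist4h among the 27514 gene identifiers that the gene lists of both preparations shared. Membership was set by the symbol in the cortical gene list and by no measured value, although the group was taken up with other results of these data known. The members were 6 linker histone genes (H1), 18 of H2A, 16 of H2B, 12 of H3 and 13 of H4. The Hist1 cluster on chromosome 13 held 52 of them, the Hist2 cluster on chromosome 3 held 10, and 3 lay on chromosomes 11 and 6 (Hist3h2a, Hist3h2ba and Hist4h4). Single-cell RNA sequencing had been performed on cells from wild-type female C57Bl/6J mice, from the cortex at 3 weeks and from the hippocampus at 5 weeks, with no genetic change or treatment in either. In each preparation the cells of 3 mice were pooled after myelin removal and the pool was run as 3 technical replicates, which made 6 libraries and 1 biological sample per condition. No test was therefore possible, SDs describe technical replicates of 1 pool, and all intervals are exact 95% intervals that cover counting error only. Region, age, preparation and gene annotation changed together between cortex and hippocampus and cannot be told apart.

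Replication-dependent histone genes are transcribed mainly in S phase, when newly made DNA has to be packed into nucleosomes, each built of an octamer of H2A, H2B, H3 and H4 and sealed by a linker histone of the H1 family. Their messengers are the exception among animal mRNAs in that they normally end in a short stem-loop, bound by the stem-loop binding protein Slbp, and carry no poly(A) tail. The droplet method used here primes on poly(A), so a UMI of such a gene comes from a transcript that was tailed, for example one processed at a poly(A) signal beyond the stem-loop, or from priming on an internal run of A. The tail itself was not measured.

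After filtering, 13320 cortical and 14210 hippocampal cells were kept, with 4351 to 4830 cells and a median of 5800 to 6914 UMIs per cell in each library. Over all barcodes, before filtering, the libraries held 39662203 to 50024850 UMIs in total. Of the kept cells, 61 in the cortex and 687 in the hippocampus carried a barcode that a second library of the same preparation also held. Levels are given as UMIs of a gene per 1000000 UMIs (CPM), pooled over all cells of a group, and the microglia-like clusters named below held 4 to 10 of the 10 microglia markers on the list.

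The members gave 86443 UMIs in the cortex (930 CPM) and 123239 in the hippocampus (1055 CPM). Hist1h2bc, an H2B gene, was the most abundant in the cortex with 18359 UMIs, 21.2% of the member total, and Hist1h1c, which encodes linker histone H1.2, led in the hippocampus with 26392 UMIs. The 5 most abundant members held 61.6% and 63.2% of the member UMIs. Of the 65 members, 3 had no UMI in the cortex and 3 none in the hippocampus, 6 and 7 had 1 to 19, and 56 and 55 had 20 or more. The 20 members with the most UMIs and at least 50 in each preparation, which held 91.4% and 94.0% of member UMIs, are the ones named below.

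In the GENCODE M21 annotation on GRCm38, 44 of the 65 members (67.7%) carried the histone stem-loop after the stop codon, against 77 of 21951 coding genes (0.351%) in all. The stem-loop started 21 to 58 bases after the stop codon. The 16 bases came in 8 variants, of which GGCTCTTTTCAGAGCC was found in 24 members, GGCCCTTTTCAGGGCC in 7 and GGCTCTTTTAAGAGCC in 6. The sites of 8 abundant members are printed to show how alike the stems are while the annotated ends beyond them differ, with the stem-loop in capitals and up to 5 flanking bases in lower case, read 5′ to 3′ on the gene's strand:
Hist1h1c (H1, chr13:23739512-23739527, plus strand, 840 bases of annotated transcript after it): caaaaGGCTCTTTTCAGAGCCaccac
Hist1h2ap (H2A, chr13:21833029-21833044, minus strand, 3 bases after it): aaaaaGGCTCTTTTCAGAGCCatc
Hist2h2aa1 (H2A, chr3:96246032-96246047, plus strand, 35 bases after it): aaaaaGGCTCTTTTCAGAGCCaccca
Hist1h2be (H2B, chr13:23585531-23585546, minus strand, 1861 bases after it): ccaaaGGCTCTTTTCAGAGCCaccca
Hist1h3e (H3, chr13:23561903-23561918, minus strand, 369 bases after it): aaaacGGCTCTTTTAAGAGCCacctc
Hist1h4d (H4, chr13:23581950-23581965, plus strand, 770 bases after it): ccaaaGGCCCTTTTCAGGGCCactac
Hist1h4i (H4, chr13:22040966-22040981, minus strand, 330 bases after it): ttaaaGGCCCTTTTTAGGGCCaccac
Hist4h4 (H4, chr6:136803998-136804013, minus strand, 2445 bases after it): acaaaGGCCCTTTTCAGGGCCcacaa

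The H1, H2A, H2B and H3 genes in this set shared the same stem, and the 3 H4 genes differed from it by a single base pair within the stem. By the annotated end, 25 members had a stem-loop with more than 50 bases of transcript beyond it, and these gave 60.8% of the member UMIs in the cortex and 64.6% in the hippocampus. A further 19 members, Hist1h2ap among them, were annotated to end within 50 bases of the stem-loop and gave 15.0% and 12%. Without a stem-loop in the annotation were 8 members that had sequence after the stop codon (22.8% and 21.8%, nearly all from the 2-exon gene Hist1h2bc), and 13 members, Hist1h1b among them, had no annotated sequence there at all (1.46% and 1.64%). A poly(A) signal in the last 50 bases was found in 17 members.

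The ends of several members could not be told apart by sequence. In 34 of the 65 members, 6 of the 20 named, more than 50% of the windows of 50 bases in the last 300 bases also occurred in another annotated gene. The last 300 bases of Hist1h2ap were wholly shared with Hist1h2ao, those of Hist2h2aa1 with Hist2h2aa2 and Gm20634, those of Hist1h3e with Hist1h3f, those of Hist2h3c1 with Gm20634 and those of Hist1h1e with the overlapping annotation of Hist1h2be and Gm11398. Hist1h4h shared 63.7%. Values of these genes depend on how the authors' counting treated reads that matched more than 1 gene.

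Cortical replicate 3 stood apart from the other libraries for a few members. Over all kept cells Hist1h2ap measured 112, 72.4 and 19.6 CPM in the 3 cortical replicates, and Hist2h2aa1 measured 42.5, 31.7 and 6.00 CPM. Replicate 3 was thus the low library for both of these H2A genes. Between the highest and the lowest cortical library, 4 of 38 members with at least 100 UMIs differed 3-fold or more (10.5%, against 0.68% of all genes), the other 2 being Hist1h1b and Hist1h3c. For these 2 the low library was replicate 2, with 4.61, 2.31 and 10.4 CPM of Hist1h1b and 1.72, 0.411 and 1.64 CPM of Hist1h3c in replicates 1 to 3. In the hippocampus none of 42 members differed 3-fold or more (0.242% of all genes). For the H2A sum, Hist1h2ap and Hist2h2aa1, the main cortical ratios are therefore also given without replicate 3 or by library.

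Cells were first grouped by how many of 65 cell cycle genes (30 of S phase and 35 of G2/M, none of them a cluster histone) had at least 1 UMI. In cells with 3 or more such genes, 742 in the cortex and 1363 in the hippocampus, the member sum was 1.04-fold and 1.20-fold that of cells with 0. Of the members with at least 20 UMIs, 14 of 51 were at least 2-fold higher in the cortex (27.5%, against 12.7% of all genes) and 12 of 52 in the hippocampus (23.1%, against 16.6%). At least 2-fold lower were 8 (14.3% of all genes) and 9 (13% of all genes). These cells were deep, with a median of 13005 and 13792 UMIs against 5239.5 and 5734 in cells with 0, and depth and cycling cannot be told apart in them. When cells with enough UMIs were thinned to 1000 UMIs each, 4.71% of cortical and 4.65% of hippocampal cells with 3 or 4 cycle genes still had 2 or more, against 88.3% and 85.7% of those with 10 or more. A group of cells with 10 or more cycle genes, chosen after these values were seen, is used from here on. It held 61 cortical cells (20, 12 and 29 in the replicates) and 125 hippocampal cells (48, 42 and 35). These cells were deep as well, and their depth was not matched to that of cells with 0.

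Along the number of cycle genes the member sum did not climb evenly. In the cortex it was 993 CPM in cells with 0 cycle genes, 849 with 1 or 2, 568 with 3 or 4, 453 with 5 to 9 and 5557 with 10 or more. In the hippocampus the same groups gave 1038, 1000.3, 942, 1040.3 and 4166 CPM. The sum was thus flat or lower until the last group, in which it was high in every library. The make-up of the groups shifted alongside: microglia-like cells were 47.5%, 24.3% and 1.64% of the cortical cells with 0, with 3 or 4 and with 10 or more cycle genes, and 42.3%, 22.7% and 3.20% of the hippocampal ones. Among cells with 10 or more cycle genes, Scrublet called 19.7% doublets in the cortex and 2.4% in the hippocampus, against 4.66% of the cortical cells with 0.

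**Figure D1:**
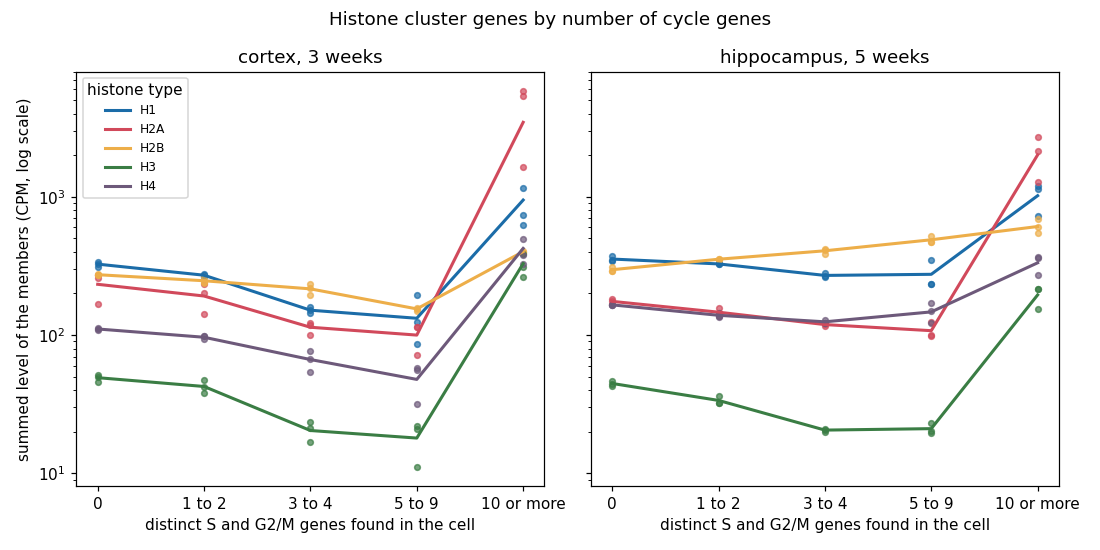
Summed level of the H1, H2A, H2B, H3 and H4 members (CPM, log axis) by number of cell cycle genes detected, for cortex and hippocampus, with points for the 3 technical replicates and lines for the pooled cells. H2A goes from 233 CPM in cells with 0 cycle genes to 3455 in cortical cells with 10 or more, and from 175 to 2010 CPM in the hippocampus, while the groups in between stay low. Without cortical replicate 3 the cortical H2A sums are 264.6 and 5491 CPM.

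In cells with 10 or more cycle genes, the member sum was 5.60-fold (interval 5.44 to 5.76) that of cells with 0 in the cortex and 4.02-fold (3.92 to 4.12) in the hippocampus. The replicates read 7163, 7516 and 4029 CPM against 1015, 1015 and 946 in the cortex. In the hippocampus they read 3026, 4482 and 5085 against 1032, 1058 and 1021 CPM. Every library with many cycle genes lay above every library without. At least 2-fold higher were 39 of 51 members in the cortex (76.5%, against 15.6% of all genes) and 37 of 52 in the hippocampus (71.2%, against 19.5%), and at least 2-fold lower were 2 (25.8% of all genes) and 3 (28.7% of all genes). The median ratio over these members was 4.74 and 3.84, against 0.947 and 0.946 over all genes. These ratios, and those by gene until the classes are taken apart below, pool all classes. Hist1h2ac and Hist1h3a, among others, were highest in microglia-like cells among cells with 0, and the share of that class fell. The part of class make-up in the ratios was not tested. Without called doublets the counts were 40 of 51 (15.9% of all genes) and 36 of 51 (19.6% of all genes), with sums of 6.75-fold and 4.14-fold. Leaving out cortical replicate 3 gave 30 of 46 members (16.8% of all genes) and 7.17-fold. The floor of 20 UMIs was over both groups together, so some members entered through the cells with many cycle genes. In the cortex Hist1h2af had 25 UMIs there against 0, and Hist1h3b 35 against 1. Some members were counted on few UMIs with intervals across 1, such as cortical Hist1h4m on 2 (0.426 to 15.5).

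**Figure D2:**
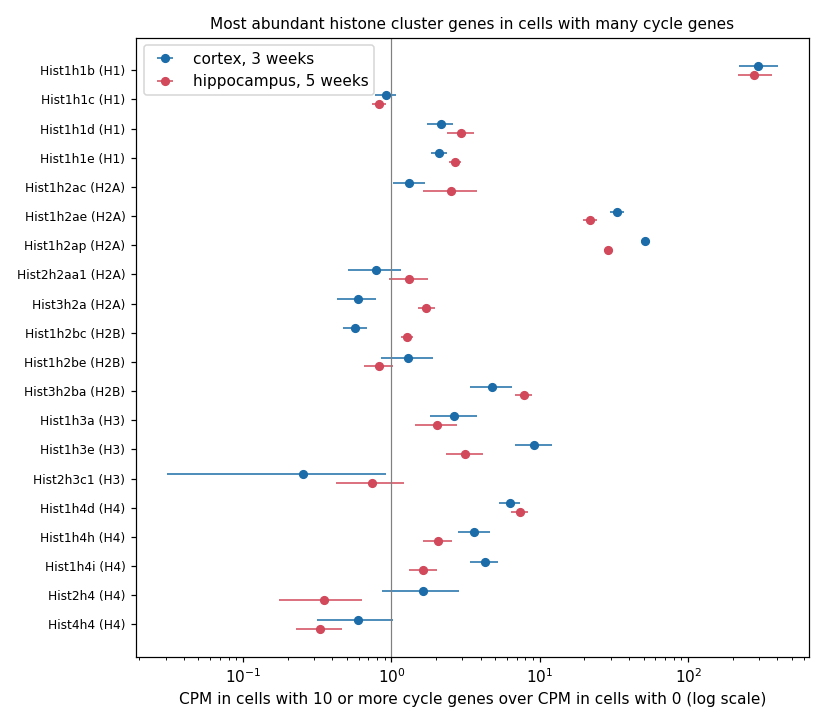
Ratio of the level in cells with 10 or more cell cycle genes to that in cells with 0 (log axis) for the 20 named members, in cortex and hippocampus, with bars for 95% counting intervals. The named members run from 0.253 (Hist2h3c1, cortex) to 296 (Hist1h1b, cortex).

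The linker histone genes were split. Their sum was 2.91-fold and 2.87-fold as high in cells with many cycle genes, from 326 to 948 CPM in the cortex and from 355 to 1018 in the hippocampus. Hist1h1b, which encodes H1.5, was near 0 in the pooled cells with 0 cycle genes. Its replicates read 1.62, 1.58 and 0.788 CPM in cortical cells with 0 cycle genes and 288, 206 and 513 in those with 10 or more. In the hippocampus they read 1.37, 1.47 and 2.13 against 303, 555 and 529 CPM. The groups were far apart in each library, at 296-fold (221 to 403) and 279-fold (216 to 368). Hist1h1c, which encodes H1.2, did not share this: its ratio was 0.913 (0.770 to 1.08) in the cortex, with replicates of 70.3, 168 and 175 CPM against 145, 155 and 163, and 0.822 (0.737 to 0.915) in the hippocampus. Hist1h1d and Hist1h1e, for H1.3 and H1.4, lay between these, at 2.14-fold and 2.10-fold in the cortex and 2.92-fold and 2.69-fold in the hippocampus. Among cortical cells with 0 cycle genes, these 2 genes were at 96.3 and 227 CPM in microglia-like cells. Macrophage-like cells, the next class, had 19.4 and 87.5 CPM. Microglia-like cells were 47.5% of the cortical cells with 0 cycle genes and 1.64% of those with 10 or more. The part of this shift in the split between H1 genes was not tested. Without cortical replicate 3 the Hist1h1b ratio was 163. In 30 cortical cells with 0 cycle genes that were neuron-like by their own markers, Hist1h1b was at 66.1 CPM, on 10 UMIs.

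Since Hist1h1b and Hist1h1c lay at the ends of the H1 range, the promoter windows of both are shown, 250 bases before to 50 after the RefSeq start on GRCm38.p6, with 4 searched motifs in capitals wherever they occur on either strand. These were the CCAAT box (letters CCAAT), the TATA box (letters TATAAA), the octamer of H2B promoters (letters ATTTGCAT) and the H1 box (letters AAACACA), and none overlaps another in these windows:
Hist1h1b (chr13:21780576-21780875, minus strand): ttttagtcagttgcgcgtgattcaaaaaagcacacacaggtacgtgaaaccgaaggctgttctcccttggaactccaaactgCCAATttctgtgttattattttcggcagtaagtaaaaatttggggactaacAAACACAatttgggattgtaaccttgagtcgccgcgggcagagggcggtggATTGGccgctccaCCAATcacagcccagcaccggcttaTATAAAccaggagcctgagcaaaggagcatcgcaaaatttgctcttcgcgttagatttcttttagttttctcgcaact
Hist1h1c (chr13:23738557-23738856, plus strand): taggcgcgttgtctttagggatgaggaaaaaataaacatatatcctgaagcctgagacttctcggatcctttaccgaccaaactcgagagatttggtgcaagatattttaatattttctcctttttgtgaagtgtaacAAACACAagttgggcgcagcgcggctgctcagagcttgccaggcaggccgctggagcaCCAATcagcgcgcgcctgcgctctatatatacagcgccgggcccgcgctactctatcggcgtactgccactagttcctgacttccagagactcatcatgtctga

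The AAACACA element, known from H1 promoters, was in 4 of 5 H1 windows with a match and in 7.18% of all 32851 windows, and both genes above carried it. A TATAAA was in the Hist1h1b window. The Hist1h1c window had no exact TATAAA, but it holds tatatata before the RefSeq start, which a search for those exact letters does not count. Of the 65 members, 59 had a RefSeq window. CCAAT was in 84.7% of these (37.4% of all windows) but in 3 of 12 H4 windows, TATAAA in 57.6% (13.6% of all windows), and the octamer ATTTGCAT, bound by Pou2f1, in 7 of 18 H2A and 5 of 14 H2B windows and in no other member (1.74% of all windows). These are matches of letters and no binding was measured.

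H2A genes gave most of the difference. Their sum was 14.8-fold and 11.5-fold as high in cells with 10 or more cycle genes. Hist1h2ap read 4230, 4713 and 692 CPM in the cortical replicates against 76.7, 57.0 and 7.87 in cells with 0. In the hippocampus it read 770, 1223 and 1905 against 46.0, 33.3 and 54.1 CPM. It was thus higher in each library, at 51.1-fold (48.1 to 54.3) and 28.7-fold (27.0 to 30.6), although cortical replicate 3 was low in both groups of cells. Without that replicate the cortical H2A ratio was 20.8 and that of Hist1h2ap 65.8. Hist1h2ae read 817, 737 and 495 CPM against 21.6, 20.3 and 15.5 in the cortex, and 239, 455 and 370 against 18.0, 18.1 and 13 in the hippocampus, 33.0-fold and 21.7-fold higher. The other named H2A genes were different: Hist1h2ac was at 1.32 and 2.52, Hist2h2aa1 at 0.786 and 1.32, and Hist3h2a at 0.591 and 1.72. For Hist2h2aa1 both intervals reached across 1 (0.507 to 1.17 and 0.960 to 1.77). Its libraries went different ways, with ratios of 0.710, 0.673 and 2.66 in the cortex and 0.817, 2.61 and 0.889 in the hippocampus.

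The H2B sum was 1.47-fold and 2.05-fold as high. Hist1h2bc, which alone gave most H2B UMIs, read 110, 168 and 115 CPM in cortical cells with many cycle genes and 210.1, 218 and 211 in cells with 0. In the hippocampus it read 276, 204 and 269 against 193, 199 and 188 CPM. It was therefore lower in each cortical library (0.571, interval 0.475 to 0.681) and a little higher in each hippocampal one (1.28, 1.16 to 1.41). Hist3h2ba, the H2B gene of the Hist3 cluster, was at 4.74 and 7.76 over all classes. Among hippocampal cells with 0 cycle genes it was at 460 CPM in neuron-like cells and at 2.50 to 108 CPM in the other classes. Within the hippocampal neuron-like class its ratio was below 1, as given further on, so the pooled ratio did not hold in that class. Hist1h2be was at 1.30 (0.851 to 1.91) and 0.824 (0.654 to 1.02), both intervals reaching across 1.

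Among the H3 genes, whose sum was 6.68-fold and 4.36-fold as high, Hist1h3e was 9.08-fold and 3.12-fold higher and Hist1h3a 2.66-fold and 2.03-fold. Hist2h3c1 was at 0.253 in the cortex on 2 UMIs and at 0.744 (0.422 to 1.22) in the hippocampus. Outside the named 20, and singled out after its values were seen, Hist1h3c was 405-fold (205 to 913) and 413-fold (172 to 1301) higher, on 9 and 5 UMIs in cells with 0 cycle genes. The H4 sum was 3.82-fold and 2.01-fold as high. Hist1h4d was 6.27-fold and 7.33-fold higher, while Hist4h4 was at 0.599 (0.317 to 1.03) in the cortex and at 0.331 (0.227 to 0.466) in the hippocampus, where its replicates read 20.8, 21.1 and 11.0 CPM against 54.0, 54.8 and 54.3. Hist2h4 was lower in the hippocampus as well, at 0.352 (0.175 to 0.634), and at 1.64 (0.864 to 2.85) in the cortex. Hist1h4h was at 3.63 and 2.05, and Hist1h4i at 4.24 and 1.64. For Hist4h4 the classes were far apart. Among hippocampal cells with 0 cycle genes it was at 105 CPM in microglia-like cells. The other named classes together had 4.16 to 4.94 CPM with each replicate left out in turn. The cells with 10 or more cycle genes, 3.20% of them microglia-like, had 18.0 CPM. The part of class make-up in the low Hist4h4 ratio was not tested.

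Grouped by annotated end, the median ratio of the 24 members with a stem-loop and a longer end was 2.29 in the cortex and 2.81 in the hippocampus. Members that end within 50 bases of the stem-loop had medians of 4.34 and 4.26, those without a stem-loop 7.65 and 3.10, and the 8 measured members without any annotated end 23.9 and 12.1. The UMI floor was again over cells with many and cells with no cycle genes together, so rare members could enter a class through the former. The members without any annotated end gave 1.46% of member UMIs in the cortex and 1.64% in the hippocampus. The order of these medians can therefore not be read apart from that floor. The classes overlapped widely. The first one alone held Hist2h3c1 and Hist4h4, with ratios below 1 in both preparations, and also Hist1h3b, singled out after its values were seen, with 35 UMIs in cortical cells with many cycle genes and 1 in those with 0.

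Cells with 10 or more cycle genes were then split by which list they held more of. S-led cells (27 cortical, 50 hippocampal) had a larger share of the 30 S genes than of the 35 G2/M genes, and G2/M-led cells (34 and 75) the reverse. The member sum was lower in the S-led cells, at 3960 against 6891 CPM in the cortex and 2446 against 5369 in the hippocampus, ratios of 0.575 (0.543 to 0.607) and 0.456 (0.432 to 0.480). It was lower in each library, with ratios of 0.571, 0.504 and 0.696 in the cortex and 0.709, 0.495 and 0.243 in the hippocampus. Both groups pooled cells of all classes, and the classes differed in their level, as given below. The part of class make-up in the S-led over G2/M-led ratios was not tested. At least 2-fold lower in S-led cells were 11 of 32 members in the cortex (34.4%, against 8.47% of all genes) and 22 of 36 in the hippocampus (61.1%, against 6.71%), and none was 2-fold higher (7.08% and 6.9% of all genes).

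By type, the S-led over G2/M-led ratios in cortex and hippocampus were 0.717 and 0.468 for H1, 0.563 and 0.498 for H2A, 0.474 and 0.349 for H2B, 0.483 and 0.354 for H3, and 0.549 and 0.441 for H4. Hist1h1c was among the lowest, at 0.310 and 0.345, and Hist1h2bc was at 0.517 and 0.231. Both of these genes thus had their higher level on the G2/M side, as did the sums of all types. In cells with many cycle genes the cortical ratio of Hist1h2bc was below 1. That of Hist1h1c was 0.913 (0.770 to 1.08), with library ratios of 0.484, 1.09 and 1.07. Hist1h1b was at 0.913 (0.747 to 1.12) in the cortex, where its replicates gave 0.504, 1.32 and 0.902, and at 0.472 in the hippocampus. Hist1h2ap was at 0.550 and 0.480. Without cortical replicate 3 the cortical ratio was 0.566 for the member sum, 0.611 for H2A and 0.627 for Hist1h2ap.

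**Figure D3:**
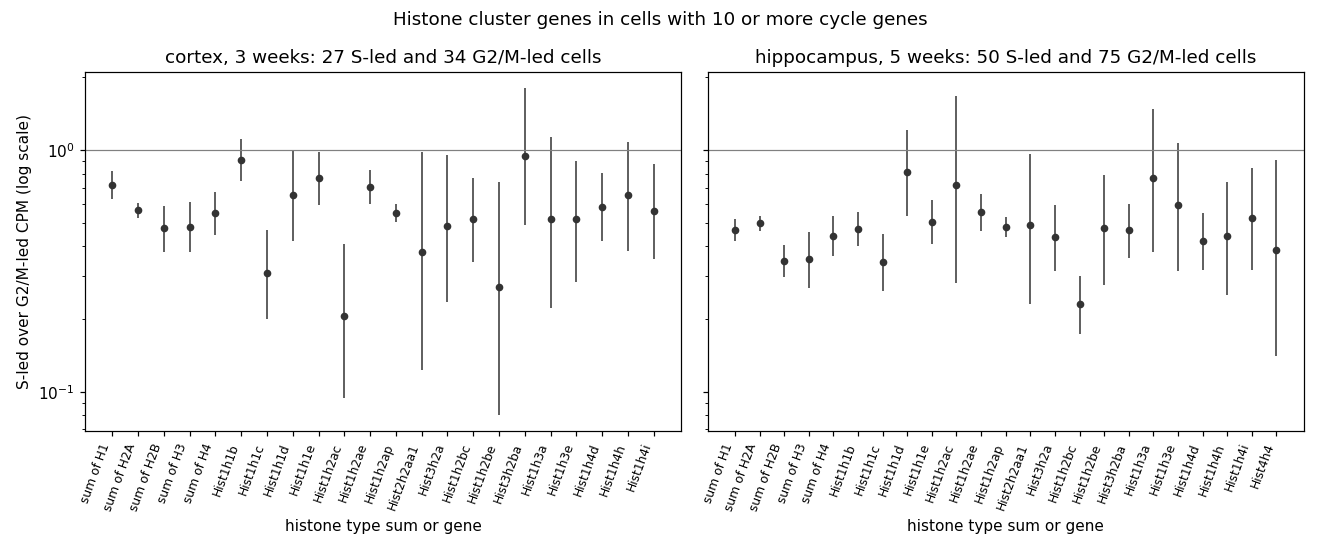
Level in S-led over G2/M-led cells (ratio, log axis, bars for 95% counting intervals) for the sums by histone type and the named members with enough UMIs, in cortex and hippocampus. All sums lie below 1, from 0.349 (H2B, hippocampus) to 0.717 (H1, cortex).

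Within a cell class the difference could be followed in 4 groups that held at least 20 cells with 10 or more cycle genes. In the cortical endothelial-like class, 23 such cells were set against 998 with 0. The member sum was 3469 against 405 CPM, 8.56-fold (8.03 to 9.12), and H2A was 28.5-fold and Hist1h2ap 226-fold as high (1427 against 6.31 CPM). Hist1h1b had 85 UMIs against 0, 411-fold when the 0 was set to a floor of 3 UMIs. Hist1h1c was at 1.58 and Hist1h2bc at 0.852 in these cells, again apart from the others. The libraries differed, with ratios of 14.1, 1.43 and 6.26. These rest on 8, 3 and 12 cells with many cycle genes. The class ratio was 5.52 without replicate 1, 9.38 without replicate 2 and 11.2 without replicate 3, and the H2A ratio 12.9, 33.4 and 40.5.

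In the hippocampal class named oligodendrocyte precursor-like (OPC-like), 58 cells with 10 or more cycle genes gave 6194 CPM against 458 in the 101 cells with 0, 13.5-fold (12.2 to 15.0), with 13.7, 10.7 and 17.4 in the libraries. All histone types were higher, H1 24.1-fold, H2A 36.2-fold, H2B 2.83-fold, H3 14.5-fold and H4 10.7-fold. Hist1h1b had 768 UMIs against 0 (203-fold over a floor of 3 UMIs), Hist1h2ap was 115-fold and Hist1h2ae 96.9-fold higher, and here Hist1h1c (5.75-fold) and Hist1h2bc (1.95-fold) were higher too. All 58 came from a cluster of 128 cells led by Top2a, Pdgfra and Mki67, which held 9 OPC markers and 6 neuron markers, while 65 of the 101 cells with 0 came from another cluster of 182 cells led by Tnr, Gpr17 and Bmp4 with 7 OPC markers. Within the first cluster alone, against its own 36 cells with 0 cycle genes, the member sum was 12.8-fold (10.7 to 15.3), H2A 31.7-fold, Hist1h1c 7.14-fold and Hist1h2bc 4.67-fold as high. For the member sum the difference was thus about as large within that cluster as over both. Types and genes moved either way: within the cluster H1 was 17.9-fold, H2B 3.02-fold, H3 26.4-fold and H4 7.74-fold as high. When each cell was named by its own markers instead (at least 3 of a class and more than of any other), 11 of the 58 stayed OPC-like, 27 were neuron-like, 11 microglia-like, 5 astrocyte-like and 4 unnamed. The 12 hippocampal cells with 10 or more cycle genes that were OPC-like by their own markers, fewer than the 20 asked for elsewhere and none from replicate 1, had 2411 CPM, 5.92-fold (4.91 to 7.17) that of such cells with 0, with 3798 and 776 CPM in replicates 2 and 3.

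In the hippocampal neuron-like class the result turned on how cells were named. By cluster, its 39 cells with many cycle genes had a member sum of 1410 CPM against 1475 in 87 cells with 0, a ratio of 0.956 (0.870 to 1.05), and H2A was at 0.557. Hist1h1b was still higher, with 38 UMIs against 1, and Hist1h2bc was 2.22-fold higher, while Hist3h2ba was at 0.377. By their own markers, 54 cells with many cycle genes were neuron-like, 27 from this class and 27 from the OPC-like one, and they had 4528 CPM, with 3347, 3157 and 7530 in the replicates. That was 2.97-fold (2.76 to 3.20) the level of such cells with 0, with ratios of 2.36, 2.03 and 4.78, and H2A was 4.42-fold as high. In the cortex a cluster of 100 cells was led by Igkc, Igfbpl1 and Tubb3 and held 7 neuron and 6 B cell markers, so no class name is used for it. Its 22 cells with many cycle genes had 8564 CPM against 2588 in 42 cells with 0, 3.31-fold, with 2.97, 7.31 and 1.75 in the libraries.

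Among cells with 0 cycle genes, most members had a higher level in microglia-like cells, the resident macrophages of the brain, than elsewhere. The member sum was 1409 ± 90.9 CPM (SD, n = 3 technical replicates, 3352 cells) in cortical and 1400.4 ± 19.7 CPM (n = 3, 2824 cells) in hippocampal microglia-like cells. The replicates read 1493, 1425 and 1313 in the cortex and 1405, 1417 and 1378 CPM in the hippocampus, and leaving out barcodes shared between libraries gave 1409 and 1399.6 CPM. The other named classes together had 648 and 702 CPM, which put microglia-like cells at 2.17-fold (2.13 to 2.22) and 1.99-fold (1.95 to 2.04). At least 2-fold higher in microglia-like cells were 37 of 47 members in the cortex (78.7%, against 17.6% of all genes) and 37 of 48 in the hippocampus (77.1%, against 15.7%), and at least 2-fold lower were 2 (32.9% of all genes) and 3 (35.4%). The median ratio over these members was 5.84 and 7.57, against 0.872 and 0.804 over all genes. The floor of 20 UMIs was again over both groups together, so rare members could enter through the microglia-like cells. These counts and medians can therefore not be read apart from that floor.

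The class order differed between preparations. Among the 7 cortical classes with at least 50 cells, microglia-like cells came first at 1409 CPM, above astrocyte-like (859.6) and macrophage-like cells (765), and pericyte-like cells were lowest at 272. Among the 9 hippocampal classes, neuron-like cells were highest at 1475 CPM, followed by microglia-like (1400.4) and ependymal-like cells (1327), and pericyte-like cells were again lowest at 329. Of the 20 named members, 11 in the cortex and 10 in the hippocampus had their highest level in microglia-like cells, and 5 and 4 in macrophage-like cells. In microglia-like cells the replicates lay above those of the next class for 9 of the 11 and 4 of the 10 (Hist1h1c, Hist1h1d, Hist1h1e and Hist1h3a in both preparations), and for no gene led by macrophage-like cells. Replicates were also apart for the 4 cortical genes led by astrocyte-like cells. In the hippocampus they were apart for the 2 genes led by neuron-like cells and for 1 of 3 led by ependymal-like cells. The share of all genes with replicates apart was not counted. Of all members with at least 50 UMIs in these cells, 21 of 33 in the cortex (63.6%, against 19.6% of all genes) and 20 of 38 in the hippocampus (52.6%, against 11.6%) had their highest level in microglia-like cells, and 6 (12.5% of all genes) and 7 (8.83%) in macrophage-like cells. That floor was over all classes together, so a member could enter through the class in which it was high.

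**Figure D4:**
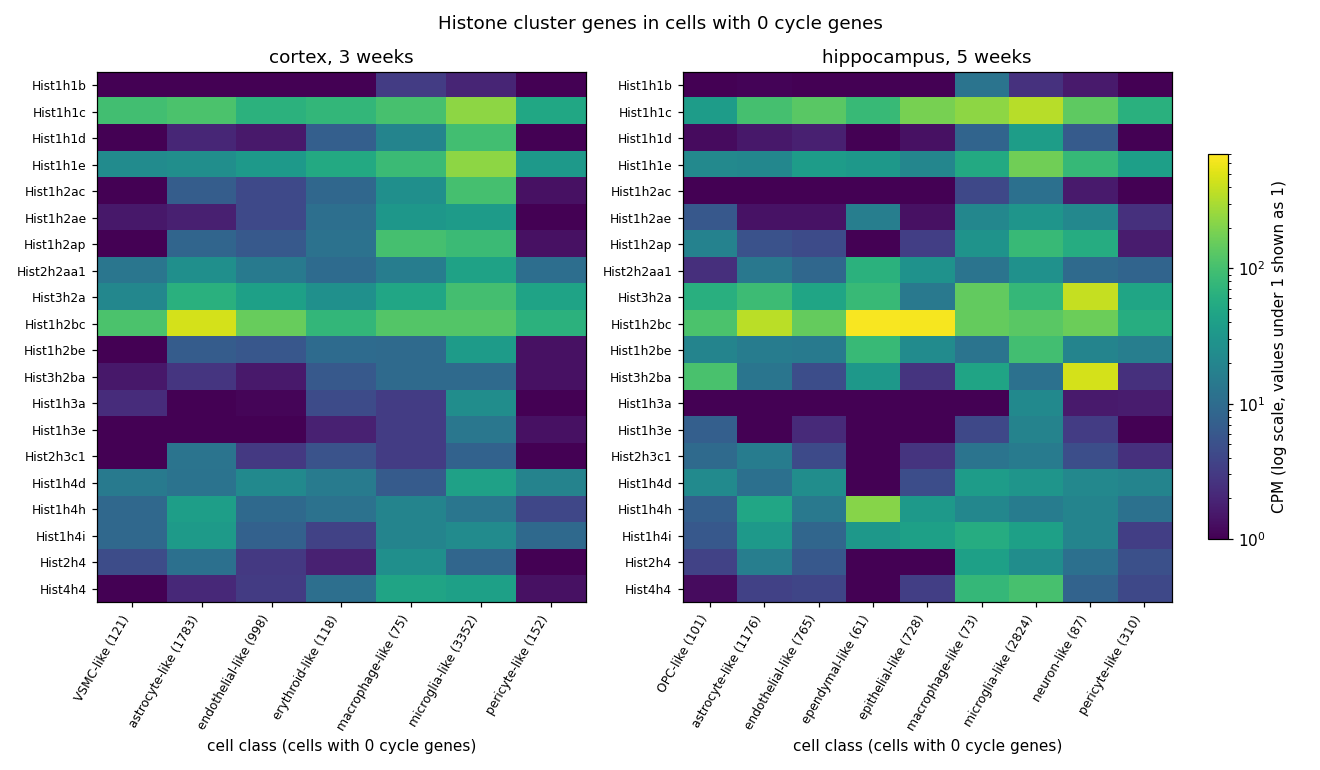
Heat map of the level (CPM, log colour scale) of the 20 named members in cells with 0 cell cycle genes, for the 7 cortical and 9 hippocampal classes with at least 50 such cells. Hist1h1d and Hist1h3a are brightest in the microglia-like column of both panels, Hist4h4 is bright in the microglia-like and macrophage-like columns (41.8 and 45.4 CPM in the cortex, 105 and 79.0 in the hippocampus), and Hist1h2bc is brightest in astrocyte-like cells of the cortex (458 CPM) and ependymal-like cells of the hippocampus (664 CPM).

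Large contrasts were found among H1, H2A, H3 and H4 genes. Hist1h1d read 105, 88.5 and 96.0 CPM in the cortical and 39.7, 42.5 and 34.0 in the hippocampal microglia-like replicates, against 2.95 and 1.70 CPM in the other classes, 32.6-fold and 22.8-fold higher. Hist1h3a read 24.2, 25.3 and 24.5, and 21.1, 23.0 and 24.0 CPM, against 1.35 and 0.568, 18.3-fold and 39.9-fold higher. Hist4h4 read 41.5, 42.0 and 42.0, and 104.6, 105.9 and 105.4 CPM, against 3.55 and 4.48, 11.8-fold and 23.5-fold higher. The pooled other classes were thus low for all 3, and the part of free RNA in those values was not tested. Macrophage-like cells, 75 and 73 in number, were apart from the other classes for Hist4h4: they had 45.4 CPM in the cortex, above microglia-like cells, and 79.0 in the hippocampus, on 14 and 19 UMIs and with replicates that overlapped those of microglia-like cells in both. Hist1h1d was at 19.4 and 8.31 CPM in them, on 6 and 2 UMIs, and Hist1h3a had 1 and 0 UMIs. Hist1h1e was 6.69-fold and 5.58-fold higher, Hist1h2ac 16.5-fold and 19.7-fold, Hist1h3e 11.6-fold and 11.7-fold, Hist1h2be 5.97-fold and 5.91-fold, and Hist1h1c 2.46-fold and 2.70-fold. Hist1h2ap and Hist1h2ae, which led in cells with many cycle genes, were also higher in microglia-like cells with 0, at 5.84-fold and 7.73-fold in the cortex and 11.5-fold and 11.4-fold in the hippocampus. Without cortical replicate 3 the cortical ratio was 5.82 for Hist1h2ap and 2.04 for Hist2h2aa1, against 2.14 with it. Hist1h1b was at 1.98 and 2.54 CPM in microglia-like cells, so that gene was low in both preparations.

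A few members went the other way. Hist1h2bc was at 120.5 and 130.0 CPM in microglia-like cells against 291 and 268 elsewhere, ratios of 0.414 and 0.486. Its level was 458 CPM in cortical astrocyte-like cells, and 664 and 636 CPM in hippocampal ependymal-like and epithelial-like cells, a pair whose replicates overlapped. Hist1h4h was at 0.545 and 0.504 and was highest in hippocampal ependymal-like cells (216 CPM). Hist3h2ba was at 1.12 (0.899 to 1.39) in the cortex and 0.318 in the hippocampus, where neuron-like cells had 460 CPM of it and 391 CPM of Hist3h2a, the H2A gene of the same cluster.

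**Figure D5:**
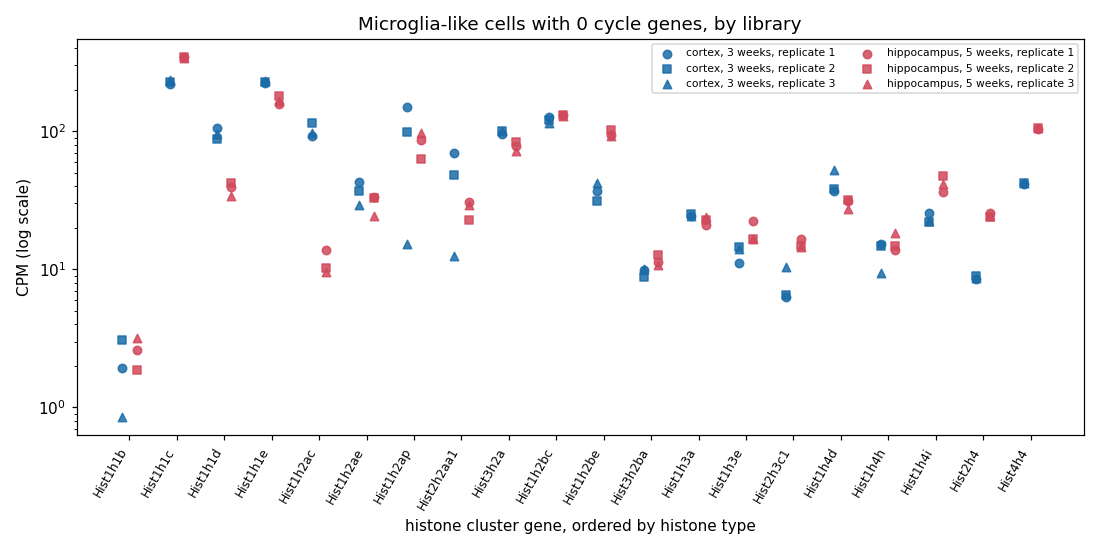
Level (CPM, log axis) of the 20 named members in microglia-like cells with 0 cell cycle genes, with points for each of the 3 cortical and 3 hippocampal libraries. Most replicates lie on top of each other, as for Hist4h4 at 41.5 to 42.0 and 104.6 to 105.9 CPM, while cortical replicate 3 is apart for Hist1h2ap (15.1 CPM against 149 and 99.1) and Hist2h2aa1 (12.4 against 69.7 and 48.2).

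Within the microglia-like class, cells with 3 or more cycle genes were close to those with 0 in the sum. The 158 cortical and 269 hippocampal cells with 3 or more had 0.870-fold and 0.882-fold the level of those with 0. At least 2-fold higher were 3 of 45 members in the cortex (2.5% of all genes) and 0 of 48 in the hippocampus (1.91%), and at least 2-fold lower were 6 (4.97%) and 9 (3.63%). By cluster, 1 cortical and 4 hippocampal microglia-like cells had 10 or more cycle genes, too few for a value. By their own markers 23 hippocampal cells with 10 or more cycle genes were microglia-like, of which 11 lay in the OPC-like class, 4 in the neuron-like and 4 in the microglia-like class and 4 in unnamed clusters. They had a member sum of 3242 CPM, with 1870, 3457 and 5220 in the replicates, 2.36-fold (2.21 to 2.51) that of such cells with 0. Their ratios were 1.37, 2.46 and 3.84 in the libraries and 1.90 without replicate 3. H2A was 4.82-fold and Hist1h1b 160-fold as high in them (398 against 2.49 CPM), while Hist1h1c was at 0.788 (0.627 to 0.978).

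Between microglia-like clusters, which were formed without the member genes, the sum in cells with 0 cycle genes ranged from 917 to 1539.9 CPM in the cortex and from 1275 to 1507 in the hippocampus. The highest cortical cluster was the largest (3214 cells), and the lowest, 277 cells with 4 of 10 microglia markers, was 10.8% called doublets. In a cortical cluster of 686 cells led by Atf3 and Ccl2, genes of the early stress response, Hist1h2ac was at 35.8 CPM, close to the 34.7 of the lowest cluster, against 118 and 109 in the 2 largest. The hippocampal cluster led by Ccl4 and Atf3 (894 cells) had the most Hist1h1c, 437 CPM, against 285, 364 and 294 in the other 3. Hist4h4 was at 79.1 and 89.9 CPM in the hippocampal clusters led by Gpr165 and by Ifit3, and at 124 and 123 in the other 2.

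Set side by side, microglia-like cells of both preparations had member sums of 1400.4 CPM in the hippocampus and 1409 in the cortex with overlapping replicates, while single members differed. Of 49 members, 5 were at least 2-fold higher in the hippocampal cells (4.27% of all genes) and 6 at least 2-fold lower (2.56% of all genes). Hist1h2ac was at 13.7, 10.3 and 9.51 CPM in the hippocampal and 92.3, 114 and 97.3 in the cortical replicates, and Hist1h1d at 38.8 and 96.3 CPM. Hist4h4 (105 and 41.8 CPM), Hist1h2be (95.9 and 36.7), Hist2h4 (24.7 and 8.72), Hist1h4i (41.9 and 23.3), Hist2h3c1 (15.3 and 7.75) and Hist1h1c (342 and 228) were higher in the hippocampal cells, with no overlap of replicates. The replicates are technical, and the share of all genes without such overlap was not counted. In endothelial-like cells 3 of 21 members were at least 2-fold higher in the hippocampus (4.87% of all genes) and 3 at least 2-fold lower (2.35%), and in astrocyte-like cells 4 of 24 (7.45%) and 3 (3.75%). Hist1h2ac and Hist1h2be had the same direction there: Hist1h2ac was at 0.393 and 4.26 CPM in endothelial-like and at 0.612 and 6.96 in astrocyte-like cells of hippocampus and cortex, and Hist1h2be at 14.5 and 5.99, and 15.5 and 6.75. Hist1h2br had 434 UMIs in the cortex and none in the hippocampus, and the gene lists of the preparations were not the same.

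Genes that work with the cluster histones were counted from 3 lists. Of 11 histone genes outside the clusters, most of which are known to give polyadenylated mRNA, 9 were at least 2-fold higher in cells with 10 or more cycle genes in each preparation (15.6% of all genes in the cortex and 19.5% in the hippocampus, which also stand beside the counts of the next lists). Their median ratio was 5.87 and 9.86, with the replacement variant H2afz 8.45-fold and 11.5-fold and H3f3b, an H3.3 gene, 1.42-fold and 1.89-fold as high. Of 14 measured genes of histone mRNA processing and transcription, 6 were at least 2-fold higher in each preparation, Slbp 4.34-fold and 5.16-fold, while Pou2f1 was at 1.16 and 1.93. Of 17 histone chaperones, which hand histones to DNA, 12 and 13 were at least 2-fold higher, Nap1l1 4.97-fold and 4.96-fold and Rbbp4 2.28-fold and 2.74-fold. In S-led against G2/M-led cells, 4 and 3 of the 11 genes outside the clusters were at least 2-fold lower (8.47% and 6.71% of all genes), and 3 of 15 and 2 of 17 chaperones at least 2-fold higher (7.08% and 6.9% of all genes), few genes in either case.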

How the data were processed

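The authors deposited, library by library, raw UMI counts of each gene in each barcode, without normalization. The submitters' processing notes name Cell Ranger 5.0.1 and mm10, whereas the matrix headers name 3.0.1 for the cortex and 3.1.0 for the hippocampus. The gene annotation release is not given in the sources used here. Barcodes outside 250 to 6000 genes or with 25% mitochondrial UMIs or more were dropped. After log-normalization to 10000, cells were clustered per preparation with the members left out (Seurat 5.3.0, R 4.3.3, Matrix 1.6.5; 2000 variable genes, 30 components, resolution 0.5). Clusters were named "X-like" from at least 3 markers of 1 of 17 cell types. Scrublet doublets (scanpy 1.11.5) were called at 0.8% per 1000 barcodes and kept. Other steps used Python 3.11.15, numpy 2.4.6, pandas 2.3.3, scipy 1.17.1 and matplotlib 3.10.9.

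CPM was computed from UMIs summed over a group of cells. Ratios carry exact conditional 95% intervals, and exact Poisson intervals were used for levels. In simulated counts 95.3% (cortex, 12605 genes) and 95.2% (hippocampus, 13543 genes) of the intervals for cells with 3 or more cycle genes over cells with 0 held the true ratio. No such share is given for cells with 10 or more. The intervals do not cover the spread between libraries. For the cortical member sum with 10 or more cycle genes the interval was 5.44 to 5.76, and the library ratios were 7.06, 7.40 and 4.26. A gene entered a comparison with at least 20 UMIs in both groups together, and was called higher or lower past 2-fold. A rare gene could thus enter through the group in which it was high. A class entered with at least 20 cells, a fold against 0 UMIs was set against a floor of 3 UMIs over the group, and library differences were counted for genes with at least 100 UMIs and a 3-fold range. Named genes are the up to 20 members with the most UMIs and at least 50 in each preparation. The planned call of cycling cells was 3 or more cycle genes, and the one at 10 or more, like the naming of its cells by their own markers, was added after seeing the data. Stem-loops and shared ends come from GENCODE M21 on GRCm38 and promoter windows from RefSeq on GRCm38.p6. The members and lists were chosen with earlier results of these data known. The paper's other cortical preparation was not analysed here.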

Additional observations from a re-analysis of the deposited data

Results flagged for a closer look

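Hist1h2bc and Hist3h2a had opposite directions in the preparations when cells with 3 or more cycle genes were set against cells with 0. Hist1h2bc was at 0.766 in the cortex and at 1.34 in the hippocampus, and Hist3h2a at 0.596 and 1.08. In both genes all 3 cortical replicates were below 1 and all 3 hippocampal replicates above it. The hippocampal side depended on the setting. Hist1h2bc was at 0.969 there as a mean of per-cell CPM, and Hist3h2a at 0.997 with 2 or more cycle genes. With 10 or more cycle genes the ratios were 0.571 and 1.28 for Hist1h2bc and 0.591 and 1.72 for Hist3h2a. The difference between the preparations was not tested, and the classes that make up these cells differed: among cells with 10 or more cycle genes endothelial-like ones were 37.7% in the cortex and 0.8% in the hippocampus. Region, age, preparation and annotation cannot be told apart in it.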

How the results depend on the processing

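The call of cycling cells moved the results most. The member sum in cells with 3 or more cycle genes over cells with 0 was 1.04 in the cortex and 1.20 in the hippocampus. It was 0.873 and 1.05 with 2 or more genes, 2.47 and 2.23 with 5 or more, 4.40 and 3.09 with the call made after thinning to 1000 UMIs, and 5.60 and 4.02 with 10 or more, a setting chosen after seeing the data. Leaving out each replicate gave 0.990 to 1.12 and 1.16 to 1.26. The number of members at least 2-fold higher, 14 and 12, was 7 in the cortex with 2 or more genes, 27 and 25 with 5 or more, 40 and 37 after thinning, 39 and 37 with 10 or more, and 7 in the cortex with a floor of 100 UMIs. Leaving out each replicate gave 8 to 15, with 8 without cortical replicate 3, and 10 to 13. With 10 or more cycle genes, leaving out each replicate gave 30 to 36 members and sums of 4.91 to 7.17 in the cortex, and 31 to 32 members and 3.61 to 4.57 in the hippocampus. In these, 46 to 49 members were measured in each preparation, and 15% to 16.8% and 18.7% to 20% of all genes passed the same fold. With 3 or more cycle genes and all replicates, 12.7% and 16.6% of all genes did. For the other settings the share of all genes is not given, so their counts cannot be read alone.

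Within microglia-like cells, the hippocampal ratio of 0.882 was 0.996 when each cell was named by its own markers. Leaving out each replicate gave 0.761 to 0.988 in the cortex and 0.837 to 0.913 in the hippocampus. The hippocampal microglia-like level of 1400.4 CPM was 1426 as a mean of per-cell CPM, 1449 CPM of nuclear UMIs and 1377 by own markers, and leaving out each replicate gave 1370 to 1457 and 1392 to 1411 CPM. Leaving out barcodes shared between libraries kept the sums with 3 or more cycle genes, their counts and the microglia-like levels within the replicate spread. Microglia-like cells by cluster with 10 or more cycle genes were too few for a value. With class names from each cell's own markers, an alternative chosen after seeing the data, the ratio of cells with 10 or more cycle genes to cells with 0 was 5.92 in place of 13.5 in hippocampal OPC-like cells (12 cells in place of 58) and 2.97 in place of 0.956 in neuron-like cells, and 7.92 in place of 8.56 in cortical endothelial-like cells. Of 520 values of named genes under alternatives to the call of 3 or more cycle genes, 470 stayed on the same side of 1, and 50 crossed it, 40 upward and 10 downward. No value crossed with called doublets or shared barcodes left out, with CPM of nuclear UMIs, or without replicate 2. None did with non-cycling cells called below 3 cycle genes. All values of these settings are among the 470. Crossings were most frequent after thinning (16 of 40), with 10 or more cycle genes (14) and with 5 or more (9), all upward. They included Hist1h1e, Hist1h4i and Hist1h1d, with ratios of 0.555, 0.922 and 0.465 in the cortex that were 2.10, 4.24 and 2.14 with 10 or more, and Hist1h1d, Hist1h1e and Hist1h3e in the hippocampus, with 0.566, 0.688 and 0.622 that were 2.92, 2.69 and 3.12. Of the 50, 10 started from a value at least 2-fold lower. In the cortex these were Hist4h4 (1.05 after thinning), Hist1h1d (2.04 after thinning, 2.14 with 10 or more genes) and Hist1h2ac (1.31 and 1.32), and in the hippocampus Hist1h2ac (1.22 with 5 or more genes, 2.63 after thinning, 2.52 with 10 or more) and Hist1h3a (2.37 after thinning, 2.03 with 10 or more). The cause was not tested.

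No paired analysis was possible because the replicate numbers name technical replicates of 1 pool and the results come from no test. With 1 biological sample per condition the spread between mice is unknown. The cells with 10 or more cycle genes were few. Genes with shared ends, free RNA in low values and the differing gene lists limit single values, and their part was not tested.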
